A study of Mus musculus with 6 samples.

Results

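The genes described here encode the enzymes that write, copy and remove DNA methylation: Dnmt1, Dnmt3a, Dnmt3b, Dnmt3l, Tet1, Tet2, Tet3, Uhrf1 and Tdg, 9 genes chosen by name. Each was represented by the probe set that names it alone and has the highest mean over all arrays, and 8 of the 9 had such a probe set, among 19937 genes in all. Tdg, the glycosylase that cuts oxidised cytosines out of DNA, was named only on 4 probe sets shared with the pseudogene Tdg-ps2, and no value is given for it.

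Transcripts were measured in mouse embryonic stem cells on 6 Affymetrix arrays, each of 1 sample, 3 treated with CHIR99021 and 3 with XAV939, each for 24 h in serum with LIF. CHIR99021, at 3 µM, inhibits the kinase GSK3 and so stabilises β-catenin. XAV939 inhibits tankyrase, stabilises Axin and lowers β-catenin, and its dose was 3 µM in the sample labels and 1 µM in the treatment protocol. All arrays came from 1 V6.5 line with a knock-in Ctnnb1-Biotin-3xFLAG allele and the biotin ligase BirA, maintained on feeder cells from DR4 mice. No untreated cells were analysed here, so a difference is between the compounds and belongs to neither alone. Nothing in the labels says that the replicates were separate cultures, so p-values measure only the spread between these arrays.

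In mammals, methyl groups are placed on cytosines of CG dinucleotides. DNMT3A and DNMT3B methylate new sites, helped in early embryonic and germ cells by DNMT3L, which has no catalytic activity of its own. DNMT1, guided to newly replicated DNA by UHRF1, copies the pattern after each round of replication. TET enzymes oxidise 5-methylcytosine, and TDG with base excision repair can then restore the unmodified base. Embryonic stem cells in serum are known for high Dnmt3 and Tet1 expression, and their genomes lose methylation when they are held in the naive state, that of the pre-implantation epiblast.

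The genes that differed in this comparison have listed transcription starts of unlike CG content. The 250 bases before a start, taken from the RefSeq promoter table (GRCm38.p6), are shown for the 4 genes that passed the test below, with CG dinucleotides in capitals. They are written 5′ to 3′ on the gene's strand. For Dnmt3a the first and the most downstream of its 3 listed starts are given, and for Dnmt3l the first of 3.
Dnmt3a, first start, chr12:3806730-3806979, plus strand: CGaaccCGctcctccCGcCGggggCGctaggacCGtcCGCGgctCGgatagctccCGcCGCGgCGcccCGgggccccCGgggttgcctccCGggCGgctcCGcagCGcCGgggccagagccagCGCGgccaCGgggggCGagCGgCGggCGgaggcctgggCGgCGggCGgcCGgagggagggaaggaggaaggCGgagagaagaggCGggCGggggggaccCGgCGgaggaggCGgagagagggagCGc
Dnmt3a, most downstream start, chr12:3891494-3891743, plus strand: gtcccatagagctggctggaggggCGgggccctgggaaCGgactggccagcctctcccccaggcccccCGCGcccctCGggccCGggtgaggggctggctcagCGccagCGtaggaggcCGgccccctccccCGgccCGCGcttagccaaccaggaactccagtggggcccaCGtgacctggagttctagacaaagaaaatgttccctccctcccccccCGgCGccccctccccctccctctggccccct
Dnmt3b, chr2:153649199-153649448, plus strand: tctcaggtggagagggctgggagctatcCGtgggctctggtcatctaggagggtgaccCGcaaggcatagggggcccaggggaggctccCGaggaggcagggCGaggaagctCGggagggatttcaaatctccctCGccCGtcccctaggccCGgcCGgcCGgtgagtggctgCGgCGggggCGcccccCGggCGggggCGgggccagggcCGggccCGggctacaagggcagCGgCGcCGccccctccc
Dnmt3l, first start, chr10:78042037-78042286, plus strand: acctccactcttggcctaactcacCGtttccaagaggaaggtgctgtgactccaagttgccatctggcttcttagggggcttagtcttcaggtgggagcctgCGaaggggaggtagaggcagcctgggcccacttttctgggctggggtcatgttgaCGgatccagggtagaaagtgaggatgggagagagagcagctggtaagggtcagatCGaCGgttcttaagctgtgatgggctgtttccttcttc
Tet1, chr10:62887325-62887574, minus strand: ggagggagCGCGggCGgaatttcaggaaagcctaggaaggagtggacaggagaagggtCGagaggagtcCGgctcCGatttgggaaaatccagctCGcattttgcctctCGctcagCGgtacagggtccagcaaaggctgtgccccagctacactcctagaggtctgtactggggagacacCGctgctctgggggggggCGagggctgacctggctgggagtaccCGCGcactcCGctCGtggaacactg

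The first Dnmt3a window held 38 CG dinucleotides, more than 98.1% of the 32841 windows of the table, and the most downstream held 15. Dnmt3b had 21 and Tet1 15. The Dnmt3l windows held 3 to 5, below the median of 6 over the table. Genes that moved in the same direction therefore included both CG-rich and CG-poor starts. The TCF/LEF core CTTTGA, searched on both strands, was in 1 of the 16 windows of the 9 genes, the first start of Dnmt1, and in 13.8% of all windows. The OTX core GGATTA was in the Tdg window (6.25% of all windows) and the E2F core GGCGGGAA in the first Uhrf1 window (1.85%). The 3 matches lay in different windows, so none overlapped another, and a match is a description of letters only.

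**Figure D1:**
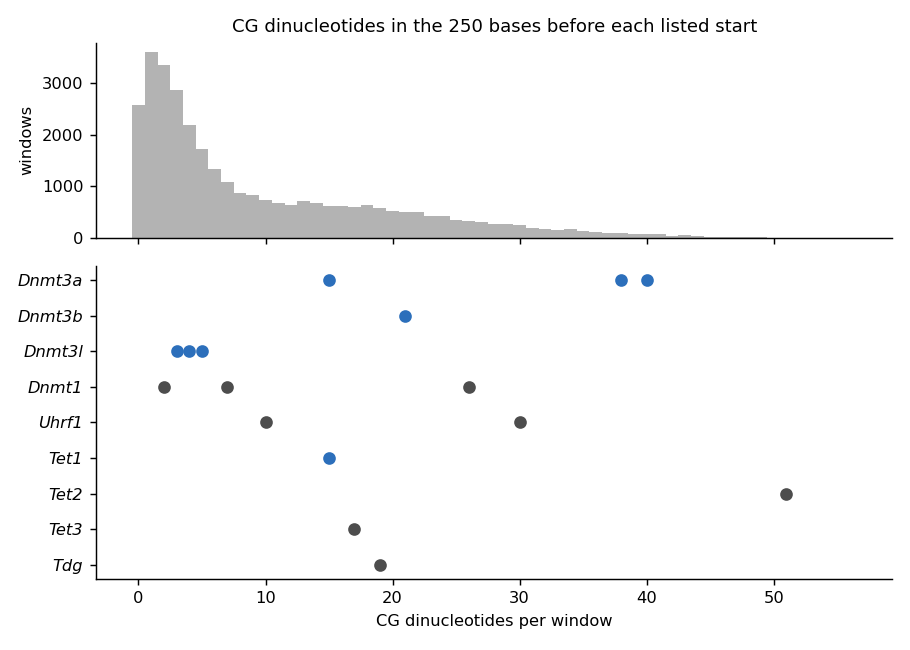
CG dinucleotides in the 250 bases before each listed start. The upper panel counts the 32841 windows of the RefSeq promoter table by their CG number, and each point of the lower panel is 1 listed start of a DNA methylation enzyme gene, blue for genes past the test and dark grey for the others. Dnmt3l starts lie at 3 to 5 and the first Dnmt3a start at 38.

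The arrays were alike in their distributions, with medians of 5.67 to 5.71 on the log2 scale, and correlated at 0.997 to 0.999 across genes within a treatment and at 0.994 to 0.995 between treatments. XAV939 replicate 1 and CHIR99021 replicate 3 stood apart most from their groups, with the lowest array weights in limma (0.384 and 0.626, where 1 is an average array). All 10 embryonic stem cell markers examined lay above the median level of all genes, with a mean log2 level of 10.65 to 10.69 with CHIR99021 and 10.78 to 10.81 with XAV939. Nanog and Zfp42 were higher with CHIR99021 and Tdgf1, Utf1, Lin28a and Sall4 lower, the calls of Zfp42, Lin28a and Sall4 being lost without 3 to 6 of the single arrays. Of 9 measured Wnt targets used as a check of the treatments, 6 were higher with CHIR99021, among them Axin2 (1.91 ± 0.09, log2 difference ± SE) and Lef1, a TCF/LEF transcription factor (0.69 ± 0.06). By the test described below, 5.31% of all genes were higher with CHIR99021 and 4.34% lower.

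The de novo methyltransferase genes and Tet1 had lower transcript levels with CHIR99021, and the genes of maintenance methylation did not pass the test. Dnmt3a was 2.84-fold lower, Dnmt3b 1.95-fold, Dnmt3l 1.55-fold and Tet1 1.31-fold. Dnmt1, Uhrf1, Tet2 and Tet3 did not pass, with differences between -0.06 and -0.19 in log2 units. In limma's moderated test with Benjamini-Hochberg adjustment over all genes and a threshold of 0.05, 4 of the 8 measured genes fell and 0 rose, where 4.34% of all genes fell, 5.31% rose and 9.65% changed in either direction. The median difference of the 8 was -0.29, against 0.0066 over all genes. The enzyme genes were chosen with earlier results of these data known, so their count and median are not an independent test. In bulk RNA, fewer cells that express a gene and less RNA per cell cannot be told apart.

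**Figure D2:**
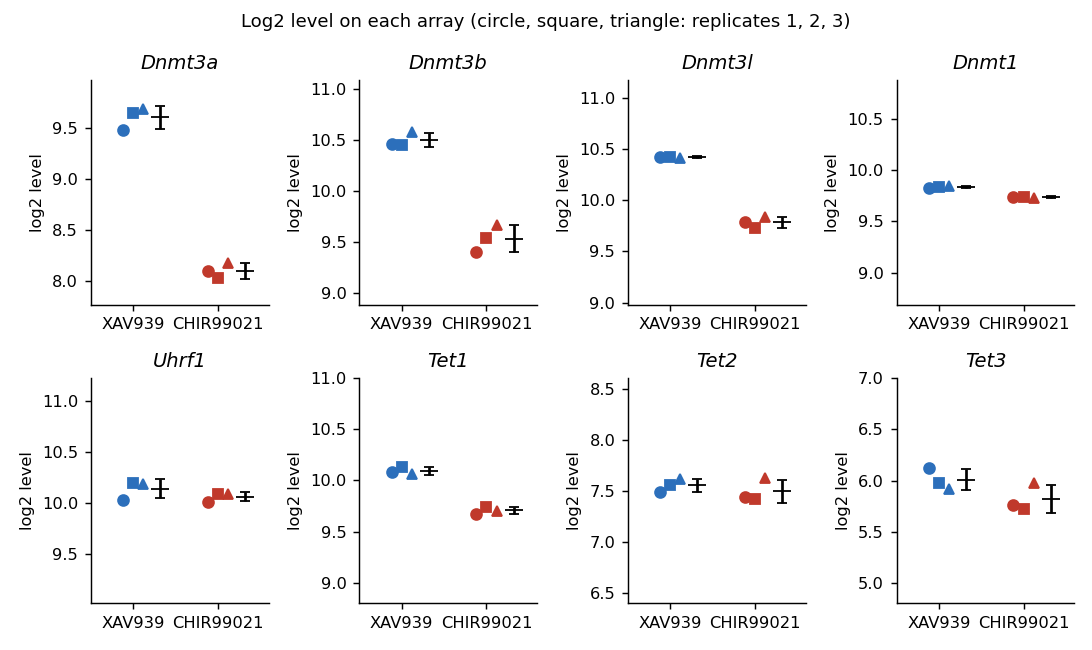
Log2 level of each gene on each of the 6 arrays, blue for XAV939 and red for CHIR99021, with circles, squares and triangles for replicates 1, 2 and 3 and black bars for the mean ± SD (n = 3). Every panel spans the same number of log2 units, and the treatments are fully separated for Dnmt3a, Dnmt3b, Dnmt3l and Tet1 and, by a narrow gap, for Dnmt1.

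Dnmt3a encodes a methyltransferase that acts throughout development, and embryonic stem cells mainly use a short form made from a start inside the gene. The single probe set reported 1 value for the gene, so its forms were not separated. With CHIR99021 its log2 levels were 8.10, 8.03 and 8.18, and with XAV939 they were 9.48, 9.65 and 9.69. The lowest XAV939 array stood 1.30 above the highest CHIR99021 array. Group means were 8.10 ± 0.07 and 9.60 ± 0.11 (SD, n = 3 each), a difference of -1.50 ± 0.07 (SE, 95% interval -1.66 to -1.35, limma adjusted p = 5.43e-07). Ordered from the most negative difference, Dnmt3a was at rank 7 of the 19937 genes. It was also among the 24 genes (0.12% of those tested) that fell at least 2-fold.

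Dnmt3b encodes the methyltransferase of the early post-implantation embryo, with a particular role at centromeric satellite repeats. Its log2 levels were 9.40, 9.54 and 9.66 with CHIR99021 and 10.46, 10.45 and 10.58 with XAV939, and the groups were 0.79 apart at their nearest. The difference of -0.96 ± 0.07 (SE) had a 95% interval of -1.12 to -0.80 and a limma adjusted p of 1.68e-05. The CHIR99021 arrays spread more widely (SD 0.13) than those of XAV939 (SD 0.07), yet their range was small beside the distance between groups. Dnmt3b was at rank 32 from the most negative difference.

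Dnmt3l encodes the cofactor that binds unmethylated histone H3 tails and stimulates DNMT3A and DNMT3B. Its log2 levels were 9.79, 9.73 and 9.84 with CHIR99021 and 10.43, 10.43 and 10.41 with XAV939. The XAV939 arrays were nearly equal (SD 0.0083, n = 3), and the nearest arrays of the groups were 0.57 apart. Dnmt3l differed by -0.64 ± 0.05 (SE, 95% interval -0.75 to -0.52, limma adjusted p = 2.79e-05), rank 132 from the most negative difference. Within the CHIR99021 group, replicate 3 had the highest value for all 3 of Dnmt3a, Dnmt3b and Dnmt3l.

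The measured differences of the 3 genes of the de novo group were of unequal size. Taking the difference between a pair of genes within each array removes what an array adds to both. From XAV939 to CHIR99021 this within-array difference moved by -0.54 for Dnmt3a against Dnmt3b, by -0.87 for Dnmt3a against Dnmt3l and by -0.33 for Dnmt3b against Dnmt3l, with no overlap between treatments in any of the 3. Each gave p = 0.1 in a two-sided exact permutation test of 3 arrays against 3, the smallest this design allows, and 0.175 after adjustment over the 7 pairs compared. No p of this test can fall under 0.05, so it cannot decide whether the genes changed unequally. Such a ratio within arrays describes the array signal, which probe sets can compress to different degrees.

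**Figure D3:**
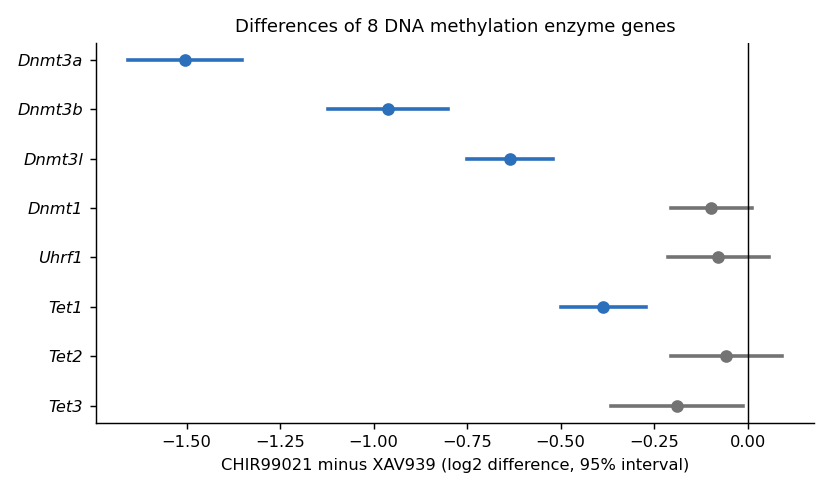
Difference between treatments for the 8 measured genes, CHIR99021 minus XAV939 in log2 units, with 95% intervals from limma (n = 3 arrays per treatment). Blue marks an adjusted p under 0.05, which Dnmt3a, Dnmt3b, Dnmt3l and Tet1 reached, and grey the other genes.

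Dnmt1, the maintenance methyltransferase, was nearly level across treatments. Its log2 levels were 9.74, 9.74 and 9.73 with CHIR99021 and 9.82, 9.84 and 9.84 with XAV939. The groups did not overlap, but the gap was 0.08, and the difference of -0.10 ± 0.05 (SE, 95% interval -0.20 to 0.01) did not pass (limma adjusted p = 0.304). The arrays of Dnmt1 were closer to each other (SD 0.0076 and 0.010) than the standard error of the fit, which borrows its spread from all genes. Counting Dnmt1, the treatments did not overlap for 5 of the 8 genes, and for 25.1% of all genes.

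Uhrf1 encodes the protein that recognises CG sites methylated on a single strand and brings DNMT1 to them. Its log2 levels were 10.02, 10.09 and 10.09 with CHIR99021 and 10.04, 10.20 and 10.19 with XAV939, so the groups overlapped through XAV939 replicate 1. The difference was -0.08 ± 0.06 (SE, 95% interval -0.21 to 0.06, limma adjusted p = 0.571). Without XAV939 replicate 1 it was -0.13 (adjusted p = 0.165) and without XAV939 replicate 2 or 3 it was -0.05. The within-array difference of Dnmt1 and Uhrf1 moved by -0.02 between treatments (exact permutation p = 0.8).

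Tet1 encodes the main 5-methylcytosine oxidase of embryonic stem cells. Log2 levels of Tet1 were 9.67, 9.74 and 9.70 with CHIR99021 and 10.08, 10.13 and 10.06 with XAV939, with 0.32 between the nearest arrays. The difference was -0.39 ± 0.05 (SE, 95% interval -0.50 to -0.27, limma adjusted p = 7.34e-04), rank 399 from the most negative. Tet1 had 3 probe sets of its own, and the other pair gave -0.41 ± 0.05 and -0.45 ± 0.05 (SE), both without overlap between treatments. Tested among all 34760 probe sets, the limma adjusted p of the 3 lay between 0.0058 and 0.0081.

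Tet2 encodes an oxidase also expressed in embryonic stem cells and known as a tumour suppressor of blood. On the arrays it read 7.44, 7.43 and 7.62 with CHIR99021 and 7.49, 7.56 and 7.62 with XAV939. The groups overlapped, and the difference of -0.06 ± 0.07 (SE, 95% interval -0.21 to 0.09) did not pass (limma adjusted p = 0.739). It was -0.12 without CHIR99021 replicate 3 and -0.09 without XAV939 replicate 1. It was -0.02 without CHIR99021 replicate 2, and -0.03 without CHIR99021 replicate 1 or XAV939 replicate 3.

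Tet3, the oxidase of the zygote and of neurons, had the lowest array signal relative to all genes, at the 47.4th percentile of mean level. The log2 levels of Tet3 were 5.76, 5.72 and 5.98 with CHIR99021 and 6.13, 5.98 and 5.92 with XAV939, which overlapped. The difference was -0.19 ± 0.08 (SE, 95% interval -0.37 to -0.01, unadjusted p = 0.0383, limma adjusted p = 0.206), and the other Tet3 probe set gave -0.17 ± 0.07 (SE) without overlap between treatments. It was -0.27 without CHIR99021 replicate 3 (adjusted p = 0.0592) and -0.13 without XAV939 replicate 1 (0.380). Without both of these arrays, the pair that stood apart from their groups, it passed at adjusted p = 0.0432.

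Among the TET genes the within-array difference of Tet1 and Tet2 moved by -0.33 between treatments without overlap (exact permutation p = 0.1, 0.175 adjusted over the 7 pairs). That of Tet1 and Tet3 moved by -0.20 (exact permutation p = 0.2) and that of Tet2 and Tet3 by 0.13 (exact permutation p = 0.3), both with overlap. Tet1 against Tet3 was -0.11 without CHIR99021 replicate 3, and Tet2 against Tet3 was 0.041 without XAV939 replicate 1 and 0.21 without XAV939 replicate 3. An unequal change of Tet1 and Tet3 was therefore not shown, although Tet1 passed the test and Tet3 did not.

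**Figure D4:**
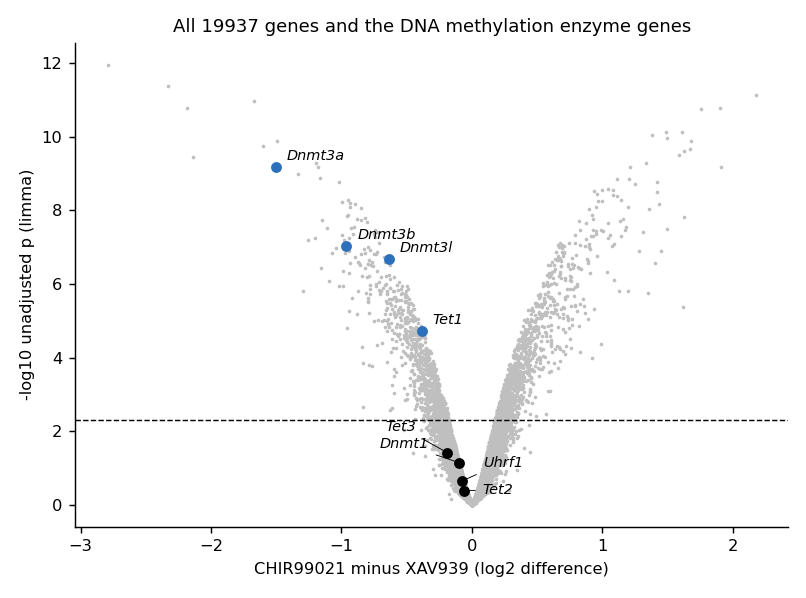
Log2 difference (CHIR99021 minus XAV939) against −log10 of the unadjusted limma p for all 19937 genes, in grey, with the 8 measured DNA methylation enzyme genes labelled, blue where the adjusted p was under 0.05 and black otherwise. The dashed line marks the largest p that passed, and Dnmt3a, Dnmt3b, Dnmt3l and Tet1 lie above it on the left.

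Genes whose profile over the 6 arrays lay closest to these were found by the root mean square difference after centring each gene on its own mean. For Dnmt3a they were Sema3e, a semaphorin (0.042 log2 units), Lrp2, an endocytic receptor (0.087), and Lefty1, a Nodal antagonist (0.097). For Dnmt3b they were Etv1, an ETS transcription factor (0.058), Crmp1 (0.058) and Syt11 (0.059). For Dnmt3l they were Elmo1 (0.035), Itga3, an integrin subunit (0.035), and Pla2g10, a secreted phospholipase (0.044). For Tet1 they were Herpud1, an endoplasmic reticulum stress gene (0.022), Bmerb1 (0.025) and Mcl1, an anti-apoptotic BCL2 relative (0.027). With 6 arrays in 2 groups this measure reflects mainly the size of the treatment difference.

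Readers of CG methylation and of CG-rich DNA moved in both directions, with 2 of 14 measured genes higher, 1 lower and 11 not past the threshold. Over all genes 5.31% rose and 4.34% fell. Uhrf2, the paralogue of Uhrf1 that does not replace it in maintenance, rose from 7.89, 7.97 and 8.08 with XAV939 to 8.36, 8.38 and 8.36 with CHIR99021. Its difference of 0.39 ± 0.06 (SE, limma adjusted p = 0.0017) was in the other direction from the value of Uhrf1, and the difference between the 2 paralogues was not tested. Zbtb38, a zinc finger protein that binds methylated DNA, rose by 0.35 ± 0.06 (SE). Kdm2b, a CXXC protein of unmethylated CG islands, was lower by -0.44 ± 0.06 (SE). The lower count was 2 without XAV939 replicate 1. The median of this list was 0.036. Leaving out CHIR99021 replicate 1 gave 0.055, leaving out CHIR99021 replicate 2 gave 0.078 and leaving out XAV939 replicate 1 gave 0.069. It turned to -0.0081 without CHIR99021 replicate 3 and -0.0029 without XAV939 replicate 2.

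Factors that direct DNA methylation to its sites were lower in 4 of 17 cases, higher in 1 and not past the threshold in 12, with a median difference of -0.029 (-0.11 without XAV939 replicate 1, -0.049 without CHIR99021 replicate 3, -0.0097 without XAV939 replicate 2). The shares over all genes were 4.34% lower and 5.31% higher. Ehmt1, a subunit of the GLP/G9a histone H3 lysine methyltransferase, fell most clearly (-0.45 ± 0.05, SE, limma adjusted p = 2.26e-04). Hells, a chromatin remodeller needed for methylation of repeats (-0.30 ± 0.07), Trim28, a corepressor of KRAB zinc finger proteins (-0.21 ± 0.05), and Nsd1, a histone H3 lysine methyltransferase (-0.20 ± 0.05), were also lower (SE). Zfp57, a KRAB zinc finger protein that protects imprints, rose by 0.23 ± 0.06 (SE). The count of lower genes was 1 without CHIR99021 replicate 1 or 2, 1 without XAV939 replicate 2 or 3, and 2 without CHIR99021 replicate 3. The call of Zfp57 held without XAV939 replicate 2 and was lost without any other single array (adjusted p = 0.0521 to 0.101). Those of Hells and Nsd1 held without XAV939 replicate 1, and that of Trim28 without CHIR99021 replicate 3, and each was lost without any other single array. Dppa3, which keeps UHRF1 from the chromatin of oocytes and early embryos, differed by 0.17 ± 0.10 (SE, limma adjusted p = 0.424). Leaving out 1 array moved it to between 0.05, without XAV939 replicate 3, and 0.25, without XAV939 replicate 1, with 0.09 without CHIR99021 replicate 2.

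Downstream of TET and TDG, 1 of 19 repair and related genes was higher, 1 lower and 17 did not pass, a share near the 9.65% of all genes called in either direction, and the counts were the same without any single array. Gadd45g rose by 0.57 ± 0.07 (SE, limma adjusted p = 3.11e-04) and Gadd45a fell (-0.29 ± 0.06, SE, limma adjusted p = 0.0095), both of the GADD45 stress family, reported to promote demethylation. The list median was 0.058.

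Enzymes that supply the methyl donor S-adenosylmethionine and its folate precursors had 3 of 15 measured genes lower, 0 higher and 12 not past the threshold. Of all genes 4.34% fell and 5.31% rose. The lower genes of the list were Mthfd1l (-0.29 ± 0.05), Mthfd2 (-0.27 ± 0.06) and Mtrr (-0.21 ± 0.05, SE), genes of mitochondrial folate metabolism and of methionine synthase repair. Mthfd2 kept its call with replicate 1 of either treatment left out and lost it without any other single array, and Mtrr lost its call without any single array other than XAV939 replicate 1. The lower count was then 2 without CHIR99021 replicate 1 and 1 without replicate 2 or 3 of either treatment, and the higher count was 1 without CHIR99021 replicate 3. Among 14 enzymes that make or use 2-oxoglutarate, the cosubstrate of TET enzymes, Idh1 rose (0.33 ± 0.09, SE, limma adjusted p = 0.0420) and 13 did not pass. This 1 of 14 is a share near the 5.31% of all genes that rose. Without XAV939 replicate 1 the difference of Idh1 was 0.21. That call held with XAV939 replicate 1 or 2 left out and was lost without any other single array (adjusted p = 0.0602 to 0.129).

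Genes of the pluripotency state were examined beside the enzymes. Across all genes 5.31% rose and 4.34% fell. Of 11 transcription factors and other naive genes 8 rose, 0 fell and 3 did not pass, with a median of 0.49. Nanog and Zfp42, among those that rose, were also counted with the stem cell markers above. Tfcp2l1 rose by 1.38 ± 0.05, Tbx3 by 0.93 ± 0.06, Klf4 by 0.81 ± 0.07 and Nr5a2 by 0.69 ± 0.05 (SE), all transcription factors of the naive network. Prdm14, known to repress Dnmt3b and to promote hypomethylation in stem cells, had log2 levels of 6.43, 6.65 and 6.63 with CHIR99021 and 6.30, 6.29 and 6.39 with XAV939. The groups did not overlap, and the difference of 0.24 ± 0.07 (SE) missed the threshold (limma adjusted p = 0.0514). Without CHIR99021 replicate 1 it was 0.31 and passed (adjusted p = 0.0176).

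The primed state is that of the later, post-implantation epiblast. Of 14 genes that mark it 10 fell, 1 rose and 3 did not pass, with a median of -0.73. Among those that fell, Tdgf1 was also counted with the stem cell markers above. The shares of all genes that fell and rose were 4.34% and 5.31%. Otx2, a transcription factor of the primed state, was at 5.47, 5.83 and 5.57 with CHIR99021 and at 7.64, 7.83 and 7.80 with XAV939, so it was lower by more than any of the methyltransferase genes. Pim2 (-2.18 ± 0.07), Lefty1 (-1.49 ± 0.06) and Nodal (-0.78 ± 0.06, SE) were lower too, and Lefty2, a Nodal antagonist, rose by 0.41 ± 0.07 (SE). Dnmt3a lay close to Lefty1 and Dnmt3b between Lefty1 and Nodal in the size of the difference. All gene lists, the naive and primed among them, were chosen with earlier results of these data known. Their counts are therefore not an independent test.

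**Figure D5:**
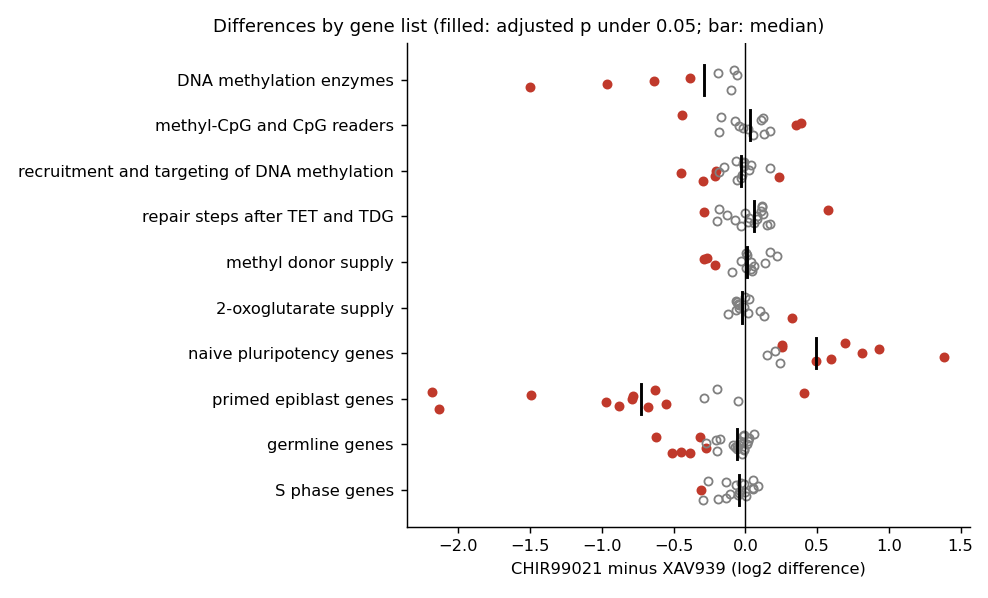
Log2 difference (CHIR99021 minus XAV939) of each measured gene of the DNA methylation enzymes and of 9 other gene lists, 1 point per gene, filled red where the limma adjusted p was under 0.05 and open grey otherwise, with a black bar at the list median. The median was -0.29 for the enzymes, 0.49 for naive and -0.73 for primed genes and within 0.06 of 0 for the other 7 lists.

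Germline genes whose promoters are commonly methylated in somatic cells were lower in 6 of 26 cases, higher in 0 and not past the threshold in 20, with a median of -0.058 (-0.036 without XAV939 replicate 1, -0.039 without CHIR99021 replicate 1, -0.089 without CHIR99021 replicate 2). Rhox9, a homeobox gene of the X-linked cluster (-0.62 ± 0.07), Mael, of transposon silencing (-0.51 ± 0.05), Ddx4, a germ cell helicase (-0.39 ± 0.07), and Sycp3, of the synaptonemal complex (-0.45 ± 0.10, SE), were among those lower. The lower count was 3 without XAV939 replicate 2, 8 without XAV939 replicate 1 and 4 without any other single array. The call of Sycp3 held with CHIR99021 replicate 3 or XAV939 replicate 1 left out and was lost without any other single array (adjusted p = 0.0563 to 0.0625). Only 6 of the 26 had a level above the median over all genes. Among all genes 4.34% fell and 5.31% rose with CHIR99021. No DNA methylation was measured here.

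Dnmt1 and Uhrf1 are transcribed mainly in S phase, and S phase genes were examined beside them. Of 19 measured, 1 fell, 0 rose and 18 did not pass, a share near the 4.34% of all genes that fell, with a median of -0.044, and their mean log2 level was 9.72 to 9.73 with CHIR99021 and 9.77 to 9.82 with XAV939. The gene that fell was Ccne1, cyclin E1 (-0.31 ± 0.06, SE, limma adjusted p = 0.0122). The count was 0 without CHIR99021 replicate 1 or 2, 2 without CHIR99021 replicate 3 and 3 without XAV939 replicate 1.

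Markers of other cells moved with the treatments as well. For comparison, 5.31% of all genes were higher with CHIR99021 and 4.34% lower. Of 19 measured feeder fibroblast markers 7 were higher with CHIR99021 and 1 lower, and their mean log2 level was 6.44 to 6.49 with CHIR99021 and 6.22 to 6.30 with XAV939. Col1a1 (1.05 ± 0.05), Tagln (0.67 ± 0.07), Pdgfrb (0.59 ± 0.05) and Acta2 (0.35 ± 0.05) were higher and Mmp2 was lower (-0.39 ± 0.07, SE), and 12 of the 19 lay above the median level of all genes. Of 6 neural progenitor markers 4 were lower, Nes (-0.82 ± 0.06), Neurod1 (-0.69 ± 0.10), Tubb3 (-0.61 ± 0.12) and Pax6 (-0.60 ± 0.06, SE), and their mean level was 6.14 to 6.32 with CHIR99021 and 6.60 to 6.72 with XAV939. Of 7 primitive endoderm markers 1 was lower, Dab2, whose call held with replicate 3 of either treatment left out and was lost without any other single array (adjusted p = 0.0673 to 0.126), and the mean level was 5.33 to 5.41 and 5.33 to 5.47. The part of these cells in the values of the methylation enzymes was not tested.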

How the data were processed

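Total RNA of the 6 samples was labelled with the Affymetrix whole-transcript kits, per the labels' protocols. The deposited table holds log2 expression values of 34760 probe sets made by the authors with RMA, per the submitters' processing notes. RMA adjusts background, equalises arrays by quantiles and summarises probes, which compresses differences of weak signals. Its version is not given in the sources used here, and scanner files were not used here, so there were no detection calls and no scan batches. The number of arrays limits the precision.

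Probe sets were named from the platform annotation: 21640 named 1 gene, 1321 several and 11799 were not listed, and 21553 of the first matched the RefSeq table (GRCm38.p6) by Entrez identifier. Genes without a probe set of their own were not analysed here. Treatments were compared with limma 3.58.1 (lmFit, eBayes) in R 4.3.3 on the values as deposited, with prior degrees of freedom of 6.15 and residual degrees of freedom of 4. On simulated data for this contrast (19937 genes) the procedure called 36.4% of genes planted at a log2 difference of 0.3, 78.8% at 0.5 and 98.4% at 1. The simulation used normal noise and planted differences in a far smaller share of genes than the 9.65% called in the data. These percentages therefore need not hold for the data. Promoter windows were counted in Python with pandas 2.3.3 and plots drawn with matplotlib 3.10.9.

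The 9 genes and all gene lists were chosen with earlier results of these data known. Named genes were every enzyme gene, up to 4 genes per list, taken by rising p from those that passed (all where 5 or fewer passed in a direction) and, for each enzyme gene that passed, the 3 closest profiles, leaving out predicted genes. Prdm14, Dppa3 and Dnmt3aos were added after their values were seen. Alternatives changed scaling, filters, probe set choice, variance model, array weights, replicate number, threshold and arrays included.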

Additional observations from a re-analysis of the deposited data

How the results depend on the processing

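Dnmt3a, Dnmt3b, Dnmt3l and Tet1 stayed lower with CHIR99021 and past the threshold in all 18 alternatives, with differences of -1.61 to -1.46, -1.04 to -0.89, -0.66 to -0.61 and -0.42 to -0.37, and adjusted p of at most 0.0081. Dnmt1, Uhrf1 and Tet2 stayed short of it in the same 18. Tet3, left out by the filter at the 50th percentile, passed in 1 of its 17 alternatives, without both CHIR99021 replicate 3 and XAV939 replicate 1 (-0.21, adjusted p = 0.0432), and with 1 array left out ranged from -0.27 to -0.13. The within-array difference of Dnmt1 and Uhrf1 turned to 0.030 without XAV939 replicate 1 and to 0.045 without both arrays, the lowest value being -0.047. Over all genes, 1924 passed. Array weights gave 2857, of which 1409 were lower with CHIR99021, the threshold of 0.01 gave 1118 (621 higher, 497 lower) and the test of all probe sets gave 698 higher. With 1 array left out, 1254 (without CHIR99021 replicate 2) to 2247 (without XAV939 replicate 1) passed, 726 to 1130 of them higher and 528 to 1117 lower, and without both arrays 2325 passed, 1245 of them lower. The number of arrays or of probe sets differs in some of these settings, and the cause of these shifts was not tested. With the replicate number as a replicate block, 1578 genes passed and the 4 lower enzyme genes were again 4. Samples of the same number deviated together at correlations of -0.096, 0.060 and -0.14 across genes, and those of different number at -0.13 to 0.18. With 3 arrays per treatment these values cannot decide whether samples of the same number were paired. Of 910 values under the alternatives for the 51 genes named from the lists or added, the closest-profile genes not among them, 803 kept their direction and side of the threshold, 103 fell short of it, 4 newly passed and 0 changed direction. Counted by gene, 34 of the 51 kept both in every alternative.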

Other observations

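Dnmt3aos, a noncoding RNA transcribed opposite to Dnmt3a, had a probe set of its own. Its difference was 0.09 ± 0.07 (SE, CHIR99021 minus XAV939 in log2 units, limma adjusted p = 0.554), with levels of 5.18 ± 0.06 and 5.08 ± 0.12 (SD, n = 3 each) that overlapped, at the 32.4th percentile of level. Without XAV939 replicate 1 the difference was 0.16 (adjusted p = 0.104), and it was 0.05 and 0.06 without XAV939 replicate 2 and 3. The difference of Dnmt3a itself was -1.50 on the same arrays, and the difference between the 2 transcripts was not tested.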
